A study of Mus musculus with 5 samples.

Results

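The cells described here were sorted as CD4 T cells from a tumor-draining lymph node. They carried a transcript of a receptor gene that SMARTA T cells use and none of Foxp3 or Il2ra. They were compared between a library labelled Treg-depleted and an untreated one. Whether each of them is a SMARTA cell was not tested. Members were chosen by the measured counts of 4 genes, so these genes are no finding between the groups: a cell needed at least 1 unique molecular identifier (UMI, which marks 1 captured transcript) of Trbv13-1 or Trav14d-3-dv8, from which the SMARTA receptor chains are built, and 0 UMIs of both Foxp3 and Il2ra. This gave 448 of 2186 cells (20.5%) in the library labelled Treg-depleted and 668 of 1099 cells (60.8%) in the untreated library, 1116 of the 20149 cells of the series in all. All mice are labelled C57BL/6, and the cells TCR transgenic CD4 T cells. The mice labelled Treg-depleted received diphtheria toxin on days 0 and 2 after tumor injection, per the labels' protocols, and both libraries came from the inguinal lymph node on day 8 after CD4+CD45.1+ cells had been sorted. The labels name no toxin receptor allele and no number of mice. For the tumor, MC38 is given under growth and PyMG under treatment, and the untreated library's labels give neither the PBS nor the isotype antibody that the protocol and the series text mention. Each group is 1 library, which leaves the differences without a replicate check or a test: intervals below are 95% intervals for counting error alone.

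Regulatory T cells (Tregs) are CD4 T cells that depend on the transcription factor Foxp3, carry the high-affinity interleukin 2 receptor chain Il2ra, and restrain other T cells in part through the receptor CTLA4, which takes co-stimulatory ligands from antigen-presenting cells. Removing them with diphtheria toxin is a standard way to ask what they hold back. SMARTA cells recognise a viral peptide, so that their response can be followed by their receptor.

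The libraries did not match the label in 1 respect that the choice of members depends on. Foxp3 had a UMI in 1284 of 2186 cells (58.7%) labelled Treg-depleted and in 16 of 1099 untreated cells (1.46%). Of 770 receptor-positive cells labelled Treg-depleted 275 had Foxp3 and 47 more had Il2ra alone, against 10 and 17 of 695 untreated receptor-positive cells. Members are what was left after both were set aside, and a cell too shallow to show Foxp3 can still be among them. The median depth was 4199 UMIs in members labelled Treg-depleted and 3457 in untreated members, with 2459581 and 2485147 UMIs in all. The genes of the rule themselves stood at 262 and 352 CPM (UMIs per 1000000 UMIs of the group) for Trbv13-1 and at 80.9 and 154 CPM for Trav14d-3-dv8, in members labelled Treg-depleted and untreated members. The 3′ end of Trav14d-3-dv8 shares 73.7% of its sequence with Trav14-3, so that reads of these genes may not be told apart in the 158 and 308 members with a UMI of it. Both receptor genes had a UMI in 94 of the 448 members labelled Treg-depleted and 180 of the 668 untreated members. Exactly 1 receptor UMI was found in 217 members labelled Treg-depleted and 340 untreated members.

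How close the members stood to the Foxp3-positive cells was read from genes that the rule did not use. Gzmb, a granule protease, stood at 67.1 CPM in members labelled Treg-depleted and at 3514 CPM in Foxp3-positive cells of the same library, that is at 1.91% of their level. Klrg1, an inhibitory lectin receptor of effector Tregs, stood at 5.69 and 239 CPM, and Lrrc32, which presents latent TGF-beta on Tregs, at 2.85 and 55.1 CPM in the same cells. In members labelled Treg-depleted Klrg1 rested on 14 UMIs, 10 of them in 1 cell, and Lrrc32 on 7 UMIs. Ctla4 stood at 158 CPM in members labelled Treg-depleted, 131 CPM in untreated members and 1758 CPM in the Foxp3-positive cells. Other Treg markers stood closer, with Tnfrsf18, which encodes GITR, at 229 and 1001 CPM and Ikzf2, the Helios gene, at 486 and 1110 CPM in members labelled Treg-depleted and Foxp3-positive cells (22.9% and 43.8%). Ikzf4 and Gpr83, the second from only 4 UMIs in members labelled Treg-depleted, stood at 32.8% and 25.6% of the level in Foxp3-positive cells. In the other direction Nrp1, a receptor of thymic Tregs, stood at 397% of that level, at 52.9 and 13.3 CPM, Cd4 stood at 580 CPM in members and 168 CPM in Foxp3-positive cells, and Izumo1r, the folate receptor 4 gene, at 925 and 410 CPM. Receptor-positive cells just outside the rule, with exactly 1 UMI of Foxp3 or Il2ra, numbered 40 and had 917 CPM of Gzmb and 300 CPM of Ctla4. Those with 2 or more numbered 282 and had 3512 and 1865 CPM. The 15 untreated cells just outside the rule had 0 CPM of Gzmb and 185 CPM of Ctla4.

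Free RNA was read from Igkc, an immunoglobulin gene that T cells do not transcribe. Of all its UMIs in the library labelled Treg-depleted, 87.9% lay in 10 cells with over 1% of their UMIs in this gene and 0 with a UMI of Cd4. In members its level was 24.0 CPM, or 0.796% of the library's own level (0.606 to 1.03%), with at most 3 UMIs in a cell. Gzmb stood at 2.58% of the library's level (2.21 to 3.01%), Ifitm3 at 31.5%, S100a6 at 37.6%, Gzma at 61.4% and Ifitm1 at 149%. How much free RNA adds to these genes was not tested. Markers of other cells summed to 523 and 555 CPM for B cells (3 of 13 at 0 in both groups), 542 and 726 CPM for myeloid cells (4 of 11 at 0, among them Itgax and Csf1r), 247 and 404 CPM for gamma delta T cells, 45.5 and 91.3 CPM for CD8 T cells and 4.47 and 15.7 CPM for plasma cells, in members labelled Treg-depleted and untreated members. Their part in the results was not tested.

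The promoters of a few genes on which the results turn are shown with the motifs that a search found in them, as RefSeq gives them for GRCm38.p6, from 250 bases before to 50 bases after the transcription start. Capitals mark matches on either strand. Cdk1, the kinase that drives entry into mitosis, and Mki67, which coats mitotic chromosomes, stand for the G2 and M phase genes (G2M list), and their capitals mark TTTGAA, the cell cycle homology region. Ifitm3 and Ifitm1, neighbours on chromosome 7 that encode interferon-inducible membrane proteins, had 2 of the widest differences, and capitals mark the core of the interferon response element, which is GAAA, any 2 bases and GAAA again.
Cdk1 promoter (chr10:69352863-69353162, minus strand): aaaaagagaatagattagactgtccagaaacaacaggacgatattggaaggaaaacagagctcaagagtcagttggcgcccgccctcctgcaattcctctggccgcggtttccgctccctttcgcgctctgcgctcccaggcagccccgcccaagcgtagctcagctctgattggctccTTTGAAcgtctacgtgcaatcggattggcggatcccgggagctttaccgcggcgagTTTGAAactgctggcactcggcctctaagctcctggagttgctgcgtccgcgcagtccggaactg
Mki67 promoter (chr7:135716330-135716629, minus strand): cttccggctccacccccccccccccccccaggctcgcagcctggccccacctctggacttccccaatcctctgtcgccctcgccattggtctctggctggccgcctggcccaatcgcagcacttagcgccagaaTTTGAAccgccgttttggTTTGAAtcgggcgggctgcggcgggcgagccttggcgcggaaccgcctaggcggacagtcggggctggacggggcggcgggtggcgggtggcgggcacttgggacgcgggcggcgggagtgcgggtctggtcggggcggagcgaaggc
Ifitm3 promoter (chr7:141010695-141010994, minus strand): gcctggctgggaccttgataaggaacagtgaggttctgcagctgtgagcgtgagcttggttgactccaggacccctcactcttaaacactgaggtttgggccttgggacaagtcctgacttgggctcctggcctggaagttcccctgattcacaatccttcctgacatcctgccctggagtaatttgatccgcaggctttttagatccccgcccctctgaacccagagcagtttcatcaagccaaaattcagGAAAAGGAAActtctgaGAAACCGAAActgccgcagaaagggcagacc
Ifitm1 promoter (chr7:140967826-140968125, plus strand): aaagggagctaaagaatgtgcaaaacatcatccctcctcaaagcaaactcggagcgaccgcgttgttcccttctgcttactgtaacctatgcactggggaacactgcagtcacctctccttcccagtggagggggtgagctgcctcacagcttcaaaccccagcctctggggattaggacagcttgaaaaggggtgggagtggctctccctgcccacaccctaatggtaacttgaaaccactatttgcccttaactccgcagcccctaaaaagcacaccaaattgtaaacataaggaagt
TTTGAA was found 71 and 15 bases before the start of Cdk1 and 116 and 98 bases before that of Mki67. It was found in a promoter of 27 of 35 G2M genes with a RefSeq promoter, of 3 of 27 S phase genes and of 2 of 21 naive and homing genes. Of all 27025 genes with such a promoter 20.2% held it. The interferon motif was found 3 and 20 bases from the start of Ifitm3, within its transcript, and not in the 300 bases of Ifitm1. It was held by 3.99% of the 27025 genes and by 19 of 31 type I interferon genes. A match is a run of letters, not a bound site.

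Genes were measured where both groups together averaged at least 25 CPM and held 30 UMIs. Of these 6567 genes, 221 (3.37%) were at least 2-fold higher in members labelled Treg-depleted and 190 (2.89%) at least 2-fold lower. At 1.5-fold, the limit for the gene lists below, 463 (7.05%) were higher and 791 (12.0%) lower. The count of each list is to be read beside these shares. The median log2 ratio of all 6567 genes was −0.10. With TMM factors, which scale by the bulk of genes rather than by totals, the same median was 0.03, with 265 genes higher and 128 lower, so that 67.4% of the genes past 2-fold were on the higher side instead of 53.8%. Log2 ratios are given without these factors, which turn the sign of the medians of 2 lists below that lie close to 0. Besides the genes described below, the G protein gene Gna15 was among the 15 genes farthest higher, at 50.8 CPM in members labelled Treg-depleted and 2.82 CPM in untreated members (18.0-fold). The higher side was led by interferon-inducible, granule and migration genes and by genes of DNA replication and mitosis. The lower side was led by Nrn1 and Wnt10a. The plot of CPM per gene shows the 15 genes farthest from equality on each side.

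**Figure D1:**
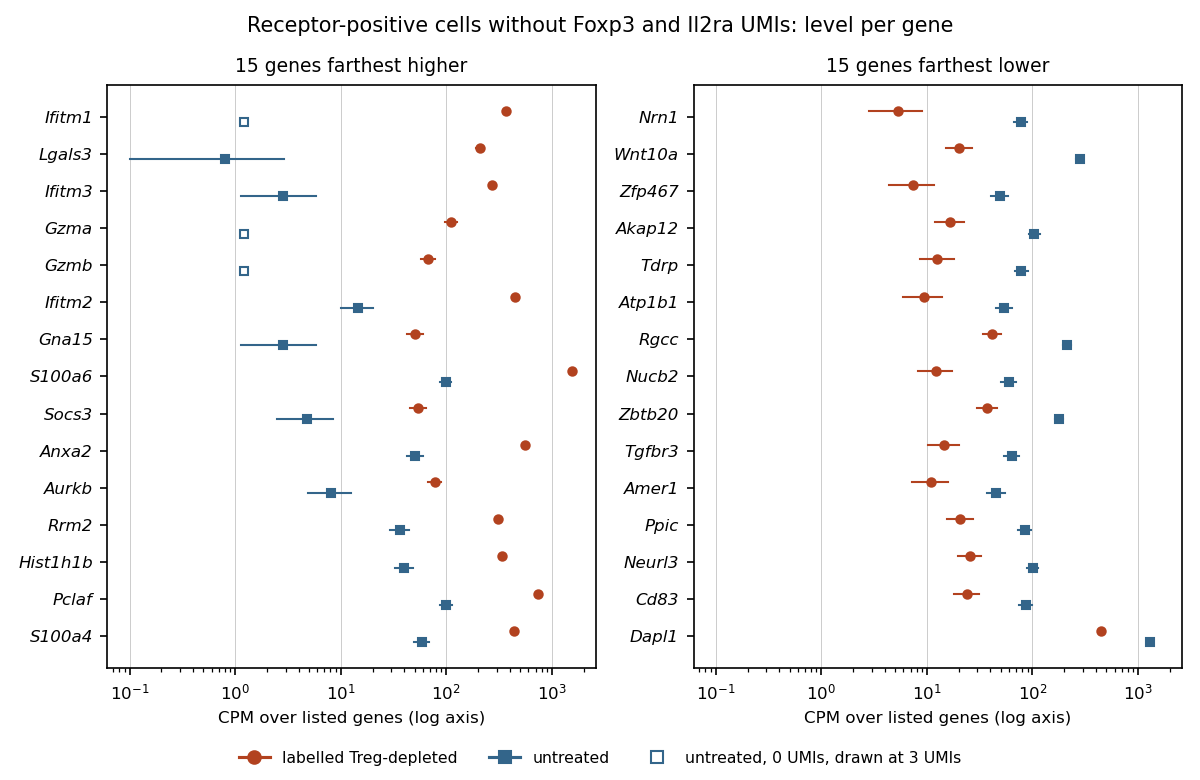
CPM (log axis) of the 15 genes farthest higher and the 15 farthest lower, in members labelled Treg-depleted (circles) and untreated members (squares), with 95% Poisson intervals. Open squares mark genes with 0 UMIs in untreated members, drawn at 3 UMIs (1.21 CPM). The 30 genes were chosen by how far the interval of their ratio stays from 1. That the intervals of both groups lie apart follows from this choice.

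Among the interferon-inducible genes, the 3 neighbours Ifitm1, Ifitm2 and Ifitm3 differed most. Ifitm1 (chromosome 7, 140967221 to 140969825, plus strand) had 896 UMIs in members labelled Treg-depleted, or 364 CPM (341 to 389), and 0 UMIs in untreated members, which with 0 set to 3 UMIs is at least 302-fold higher. Ifitm3 had 273 CPM in members labelled Treg-depleted and 2.82 CPM in untreated members (96.9-fold), and Ifitm2 446 and 14.5 CPM (30.8-fold). Ifitm2 shares 32.6% of its 3′ end sequence with an unnamed model, so its count is less certain. Most other interferon genes differed less. In the type I interferon list 33 genes were measured, and 2 of them were higher by at least 1.5-fold and 6 lower (median log2 ratio −0.27), where 7.05% of all genes measured were higher and 12.0% lower by that fold. Ifit1, which binds viral RNA, stood at 46.3 CPM in members labelled Treg-depleted and 95.4 CPM in untreated members (2.06-fold lower), and Slfn8 at 55.3 and 126 CPM (2.27-fold lower, with 35.5% of its 3′ end shared with a pseudogene). Of 23 interferon gamma response genes 3 were higher and 4 lower (median −0.17). One of the 3 was Ly6a, the Sca-1 surface protein gene, at 1871 CPM in members labelled Treg-depleted and 333 CPM in untreated members (5.62-fold, 5.22 to 6.06). Its 3′ end shares 29.2% of its sequence with Ly6c1.

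Cytotoxic and Th1 genes, which T cells use to kill and to make interferon gamma, stood higher as a group, with much of several genes in few cells. Of 34 genes listed, 16 passed the minimum, 8 of them through 1 group alone, and 10 were at least 1.5-fold higher and 0 lower (median 1.13). Over all 34, 29 had a higher CPM in members labelled Treg-depleted and 4 a lower one, and their summed level was 1960 and 1165 CPM. The share of all genes with a higher CPM was not counted, so the 29 have no background beside them. The median log2 ratio of all genes measured was −0.10. Gzma, the granzyme A gene (chromosome 13, 113093825 to 113100981, minus strand), had 111 CPM in members labelled Treg-depleted and 0 UMIs in untreated members, at least 91.9-fold higher. Gzmb was at least 55.6-fold higher by the same bound, at the low level given above. Eomes, a transcription factor of cytotoxic and memory T cells, had 101 and 20.5 CPM (4.91-fold, 3.62 to 6.78), Nkg7, a granule membrane protein gene, 228 and 50.7 CPM (4.49-fold), and the chemokine receptor gene Cxcr6 49.2 and 10.5 CPM (4.70-fold). Ifng, the interferon gamma gene, had 37.0 and 14.9 CPM (2.48-fold, 1.68 to 3.75). Its log2 ratio was −0.32 within 2000 to 8000 UMIs and −0.13 without cells with 3 or more UMIs of Ifitm1, Ifitm3, Lgals3 or Eomes, and the mean over single cells gave 1.60-fold. Without those cells that of Cxcr6 was −0.51, and that of Eomes was −0.42 when members also had 0 UMIs of Ikzf2, Ikzf4, Lrrc32 and Gpr83. Tbx21, the Th1 master regulator, did not reach the minimum and stood at 23.2 and 12.1 CPM.

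These genes were not spread evenly over cells. Of 448 members labelled Treg-depleted, 31 had a UMI of Ifitm1 and 5 held over 50% of its UMIs. Gzma was seen in 50 cells with over 50% of its UMIs in 4, Gzmb in 48 with over 50% in 6, Lgals3 in 46 with over 50% in 4, and Eomes in 45 with over 50% in 7. For Ifng 2 cells held over 50%. In untreated members Ifitm1, Gzma and Gzmb were each seen in 0 of 668 cells, which at 3 cells allows a share of up to 0.449%. After thinning to 2000 UMIs per cell they were seen in 5.90%, 6.39% and 5.90% of 407 members labelled Treg-depleted and in 0 of 570 untreated members, which at 3 cells allows up to 0.526%. Ly6a was different, with 403 cells and over 50% of the UMIs in 82. The plot of UMIs held by the top cells sets both kinds of gene apart.

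**Figure D2:**
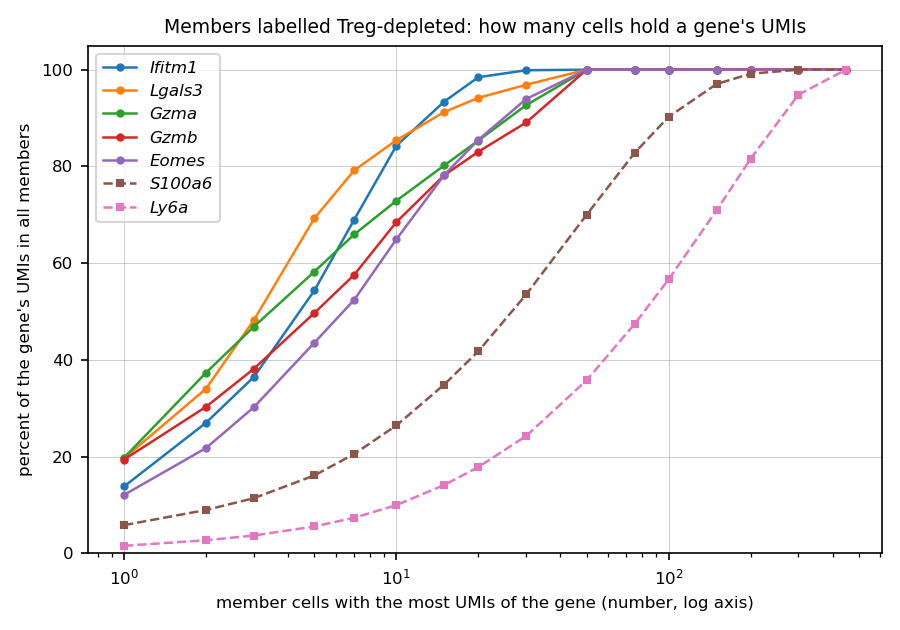
Percent of each gene's UMIs (vertical) held by the members labelled Treg-depleted with the most UMIs of that gene (horizontal, number of cells, log axis). The top 10 cells held 84.3% of Ifitm1, 85.4% of Lgals3 and 64.9% of Eomes, and 9.97% of Ly6a.

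For a closer view 2 sets of members were taken by limits set after the values had been seen. The 20 members with at least 3 UMIs of Ifitm1 held 98.4% of the Ifitm1 UMIs of all members labelled Treg-depleted, 82.3% of Lgals3, 82.0% of Ifitm3, 97.6% of the chemokine gene Ccl1, 65.9% of Ifng, 50.9% of Gzmb and 45.8% of Gzma. Ccl1 had 41 UMIs in 4 members labelled Treg-depleted, 27 of them in 1 cell, and did not reach the minimum. The 21 members with at least 3 UMIs of Eomes held 86.7% of Eomes, 79.2% of Cd24a and 46.0% of Slamf7. That each set held most UMIs of the gene that chose it can follow from its limit alone. While 0 cells were in both sets, unrelated sets this small can also share 0 cells. The 0 therefore does not tell whether the sets are separate populations, which was not tested. Izumo1r stood at 82.0 CPM in the Ifitm1 set, 395 CPM in the Eomes set and 1035 CPM in the other 407 members. The median depth was 7724, 7254 and 4051 UMIs in the same order, and both receptor genes were seen in 2 of 20, 5 of 21 and 87 of 407 cells. In those 407 members Gzma stood at 62.0 CPM, Gzmb at 36.4 CPM and Nkg7 at 108 CPM, against 0, 0 and 50.7 CPM in untreated members. Leaving out cells with 3 or more UMIs of Ifitm1, Ifitm3, Lgals3 or Eomes left 394 members labelled Treg-depleted and 661 untreated members. The median log2 ratio of the Th1 and cytotoxic list was then −0.11. The cells left out were chosen by genes already seen to be higher, and more of them were labelled Treg-depleted. A lower median can follow from this choice alone, so it does not tell what carries the list. Whether these cells are doublets or SMARTA cells at all was not tested: no doublets were removed here. Of 6 natural killer cell markers 4 were at 0 in both groups, and their summed level was 39.8 CPM in members labelled Treg-depleted and 10.9 CPM in untreated members, of which Klrb1c made up 38.6 and 6.04 CPM. Of the Klrb1c UMIs in members labelled Treg-depleted 1.05% lay in the Ifitm1 set.

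Migration, adhesion and cytoskeleton genes stood higher, some of them across many cells and Lgals3 mostly in few. Of 23 measured genes 13 were at least 1.5-fold higher and 2 lower (median 0.95), the hyaluronan receptor gene Cd44 at 102 CPM in members labelled Treg-depleted and 228 CPM in untreated members (2.24-fold lower) and Klf6 at 86.6 and 149 CPM, and the whole list of 29 summed to 15995 CPM in members labelled Treg-depleted and 7142 CPM in untreated members. S100a6, a calcium-binding protein gene of effector and memory T cells (chromosome 3, 90612882 to 90624181, plus strand), had 1559 CPM (1510 to 1609) in members labelled Treg-depleted and 98.6 CPM (86.6 to 112) in untreated members, 15.8-fold higher (13.9 to 18.1). It was seen in 232 of 448 and 34 of 668 cells. Anxa2, a membrane-binding annexin gene, had 560 and 50.7 CPM (11.1-fold), S100a4 437 and 58.7 CPM (7.45-fold, with 56.4% of its 3′ end shared with an unnamed model), and Lgals1, the galectin 1 gene, 2366 and 540 CPM (4.38-fold). Lgals3, the galectin 3 gene, had 209 CPM and, from 2 UMIs, 0.805 CPM (260-fold, 71.5 to 2150). It was seen in 46 of 448 members labelled Treg-depleted, with 82.3% of its UMIs in the 20 cells of the Ifitm1 set. Cxcr4, the receptor for the chemokine CXCL12, stood at 61.0 and 12.9 CPM (4.74-fold). Over 50% of the S100a6 UMIs lay in 27 cells and over 50% of the Lgals1 UMIs in 36. S100a4 was seen in 102 members labelled Treg-depleted, with 37.5% of its UMIs in the Ifitm1 set. In the 407 members outside both small sets S100a6 stood at 1303 CPM and Ly6a at 1920 CPM. In Foxp3-positive cells of the same library S100a6 stood at 5015 CPM and Ly6a at 3050.4 CPM.

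Shares of cells were compared after each cell had been thinned to 2000 UMIs, which kept 407 of 448 members labelled Treg-depleted and 570 of 668 untreated members. S100a6 was then seen in 41.8% (36.9 to 46.7%) of members labelled Treg-depleted and 4.91% (3.29 to 7.02%) of untreated members, and before thinning in 51.8% and 5.09%. For Ly6a the shares were 83.5% and 28.8% (403 of 448 and 251 of 668 cells before thinning). In 9 of the 10 Igkc cells that reached this depth, with a median of 17775 UMIs before thinning, S100a6 was seen in 0, while Ly6a was seen in all 9, and these cells therefore set no background for Ly6a. By the same limit of 3, a count of 0 in 9 cells allows a share of up to 33.3%. The untreated library had 0 such cells.

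Genes of DNA replication and mitosis stood higher through a minority of cells. Of 35 measured G2M genes 34 were at least 1.5-fold higher and 1 lower, Smc4 at 780 and 1179 CPM (median 1.94), though 16 of the 35 passed the minimum through 1 group alone. Over all 40 listed genes 39 had a higher CPM in members labelled Treg-depleted, a count that also has no share of all genes beside it. The list summed to 9863 and 4283 CPM. Of 32 measured S phase genes 29 were higher and 0 lower (median 1.22). Aurkb, the mitotic kinase Aurora B, had 78.1 and 8.05 CPM (9.70-fold, 6.11 to 16.2), the kinesin gene Kif22 61.4 and 8.05 CPM (7.63-fold), the cyclin gene Ccna2 116 and 15.7 CPM (7.38-fold) and Cdk1, whose promoter is shown above, 96.4 and 14.9 CPM (6.47-fold). Mki67 had 314 CPM in members labelled Treg-depleted and 74.0 CPM in untreated members (4.24-fold). In S phase, Rrm2, which makes deoxyribonucleotides, had 311 and 36.2 CPM (8.60-fold, with 20.6% of its 3′ end shared), the histone gene Hist1h1b 335 and 39.8 CPM (8.41-fold) and Pclaf, a partner of the replication clamp, 746 and 99.4 CPM (7.51-fold).

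A typical member differed little in these genes. The median share of a cell's UMIs in the G2M list was 0.297% in members labelled Treg-depleted and 0.269% in untreated members, while the 90th percentile was 1.88% and 0.534%. Over 1% of UMIs lay in the list in 74 of 448 members labelled Treg-depleted (16.5%, 13.2 to 20.3%) and 22 of 668 untreated members (3.29%, 2.08 to 4.94%), a limit set after the values had been seen, with 13 and 9 cells between 0.8 and 1.25%. After thinning to 2000 UMIs these shares were 17.7% and 4.21%. Cells above the limit were deeper, with a median of 9760 UMIs against 3876 below it in members labelled Treg-depleted and 6851 against 3400 in untreated members. Without them the G2M median was 0.40 and the S phase median 0.41, and within members of 2000 to 8000 UMIs they were 0.56 and 0.42. The cells over 1% were chosen by the G2M list itself, and more of them were labelled Treg-depleted. A lower median without them can follow from this choice alone, so it does not tell what carries the list. Having UMIs of at least 2 G2M genes did not set cells apart: 90.7% of thinned members labelled Treg-depleted and 87.0% of untreated members met it. In 9 thinned Igkc cells Mki67 was seen in 2, against 15.7% of members labelled Treg-depleted and 6.32% of untreated members, and these cells set no background for it either. Before thinning Mki67 was seen in 112 of 448 members labelled Treg-depleted and 53 of 668 untreated members.

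**Figure D3:**
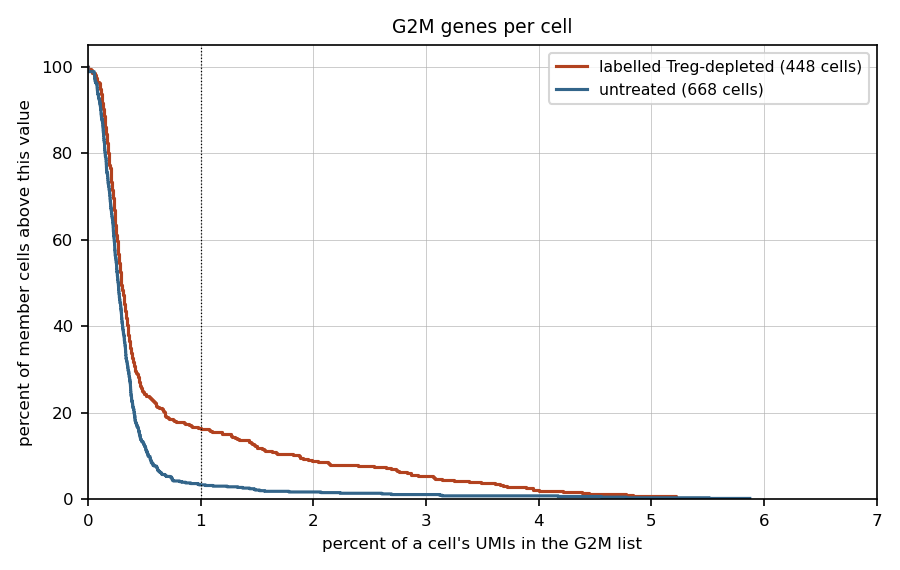
Percent of member cells (vertical) with more than a given percent of their UMIs in the G2M list (horizontal), for members labelled Treg-depleted and untreated members. The lines run close below 0.3% and part above it, with 16.5% and 3.29% of cells beyond 1% (dotted line).

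Glycolysis genes were at least 1.5-fold higher in 8 of 16 and lower in 1 (median 0.62), with Tpi1, triosephosphate isomerase, at 475 and 108 CPM (4.41-fold, 3.86 to 5.05) and Ldha, which makes lactate, at 2218 and 1025 CPM (2.16-fold, with part of its 3′ end shared) in members labelled Treg-depleted and untreated members. The median was 0.59 without the cells over 1% in the G2M list. Of 27 respiratory chain genes 2 were higher and 0 lower (median 0.38), with Cox5a at 1108 and 677 CPM (1.64-fold). That count lay near the 7.05% of all genes measured that were higher by 1.5-fold, where 12.0% were lower. Of 15 cholesterol synthesis genes 3 were higher and 0 lower (median 0.11), with Fdps at 183 and 72.4 CPM (2.53-fold, with 66.9% of its 3′ end shared), and Myc target and ribosome biogenesis genes stood higher in 3 of 27, with Ran at 1503 and 953 CPM (but a log2 ratio of −0.0645 with 0 UMIs also of Ikzf2, Ikzf4, Lrrc32 and Gpr83), and lower in Srm alone, at 56.9 and 101 CPM (median 0.10).

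On the lower side Wnt10a stood out by its share of cells. Wnt10a, a secreted Wnt ligand gene (chromosome 1, 74791516 to 74804179, plus strand), had 20.3 CPM (15.1 to 26.8) in members labelled Treg-depleted and 280 CPM (259 to 301) in untreated members, 13.8-fold lower (10.3 to 18.7). After thinning it was seen in 2.21% (1.02 to 4.16%) of members labelled Treg-depleted and 35.1% (31.2 to 39.2%) of untreated members, and before thinning in 6.92% and 42.5%. Nrn1, the neuritin gene of anergic and Treg cells, had 5.29 and 77.7 CPM (14.7-fold lower, 8.39 to 28.1). Rgcc, a regulator of the cell cycle, had 41.5 and 214 CPM (5.16-fold lower) and was seen after thinning in 5.16% and 32.1% of cells (16.3% and 45.8% before). The scaffold gene Akap12 (16.7 and 104 CPM), the zinc finger gene Zbtb20 (37.4 and 179 CPM) and Cd83, an activation marker (24.0 and 86.5 CPM), were 6.25, 4.79 and 3.61-fold lower. Dapl1, a gene of resting and memory T cells, was the most abundant of the 15 lowest genes at 449 and 1296 CPM (2.88-fold lower). The other 8 of the 15, Tdrp, Zfp467, Atp1b1, Nucb2, Tgfbr3, Ppic, Neurl3 and Amer1, were between 3.91-fold and 6.71-fold lower.

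Of 28 measured genes of the response to the T cell receptor 9 were lower and 0 higher (median −0.40, and −0.27 with TMM factors). This list does not hold Egr2, which had 56.5 CPM in members labelled Treg-depleted and 31.4 CPM in untreated members (1.80-fold higher). The log2 ratio of Egr2 was −0.14 without a condition on Foxp3 or Il2ra. Nr4a1, described below, is not in the list either. The early activation marker Cd69 had 389 CPM in members labelled Treg-depleted and 898 CPM in untreated members (2.31-fold lower, 2.14 to 2.49), Tnfsf11, which encodes RANKL, 52.4 and 142 CPM (2.70-fold lower) and the NF-kappaB regulator gene Nfkbid 35.8 and 87.3 CPM (2.44-fold lower). Among cytokine genes 3 of 9 measured were lower and 1 higher, with Lta, the lymphotoxin alpha gene, at 36.2 and 122 CPM (3.38-fold lower). Immediate early genes, which also respond to tissue digestion, included 7 lower and 2 higher ones of 20 (median −0.17). Dusp1 stood at 69.1 and 192 CPM (2.78-fold lower) and Nr4a1, a reporter of receptor signals, at 167 and 88.1 CPM (1.89-fold higher). Any part of handling in this was not tested.

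Of 18 genes that mark naive or homing T cells 9 were lower and 2 higher (median −0.57). Foxp1, which keeps T cells quiescent, had 215 and 622 CPM (2.89-fold lower), Bach2, a repressor of effector programs, 35.8 and 108 CPM (3.01-fold lower) and the lymph node homing receptor gene Ccr7 218 and 446 CPM (2.05-fold lower) in members labelled Treg-depleted and untreated members. On the higher side Klf2, a transcription factor of resting and recirculating T cells, had 983 and 580 CPM (1.69-fold higher). Of 15 cell cycle inhibitor and quiescence genes 5 were lower and 3 higher, with Foxo3, a quiescence factor, 2.64-fold lower and Cdkn2c, a kinase inhibitor gene, 2.33-fold higher. The log2 ratio of Cdkn2c was −0.15 within 2000 to 8000 UMIs and −0.17 without the cells over 1% in the G2M list.

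T follicular helper genes, for help to B cells, went both ways, with 4 of 18 higher and 4 lower (median 0.24). Maf, which drives their interleukin 21, had 215 and 72.4 CPM (2.96-fold higher), the co-stimulator gene Icos 550 and 265 CPM (2.07-fold higher) and the cytokine receptor gene Il6st 88.2 and 215 CPM (2.44-fold lower). Bcl6, their master regulator, had 41.5 and 35.4 CPM, with a ratio whose interval crossed 1, Cxcr5, the follicle homing receptor gene, 80.9 and 55.5 CPM (1.46-fold) and Pdcd1, which encodes PD-1, 113 and 94.6 CPM. Pdcd1 was seen in 16.7% of thinned cells of both groups (33.5% and 23.4% before thinning). Of 10 inhibitory receptor genes 3 were higher and 2 lower, with Cd160 4.70-fold, Lag3, a ligand of MHC class II, 2.96-fold higher at 206 and 69.6 CPM, and Cd96 2.61-fold lower. Of 13 anergy genes 2 were higher and 3 lower, with Dtx1 2.35-fold higher.

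Interleukin 2 and co-stimulation genes also divided. Of 18 interleukin 2 and STAT5 response genes 4 were higher and 4 lower (median −0.07, and 0.06 with TMM factors), with Socs3, an inhibitor of cytokine signals, at 53.7 and 4.83 CPM (11.1-fold higher, 6.15 to 22.1) and Bcl2l1, a survival gene, at 22.4 and 60.4 CPM (2.70-fold lower) in members labelled Treg-depleted and untreated members. The shared interleukin 2 receptor chain gene Il2rb stood at 222 and 223 CPM, a ratio of 0.996 (0.883 to 1.12). Cells with Il2ra were left out by the rule, so that the list lacks its best known member. Of 22 co-stimulation and cytokine receptor genes 2 were higher and 6 lower (median −0.10, and 0.02 with TMM factors), with Tgfbr1 3.28-fold lower and Il18r1 2.39-fold higher. Of 17 survival genes 2 were higher and 4 lower, where 7.05% of all genes measured were higher and 12.0% lower by 1.5-fold. Of 10 measured Treg genes outside the rule Penk was 3.85-fold higher and Rgs1 1.68-fold lower (with a log2 ratio of 0.79 without a condition on Foxp3 or Il2ra), while Ikzf2 had 486 and 658 CPM (1.35-fold lower). Of 2 measured Th2 and Th17 genes Rora was 1.65-fold higher, and Gata3 had a ratio of 1.00. Of 8 CD4 T cell genes 4 were lower and 0 higher, while Cd4 stood at 580 and 773 CPM (1.33-fold lower). In summed counts fewer cells that express a gene and less of it per cell cannot be told apart.

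**Figure D4:**
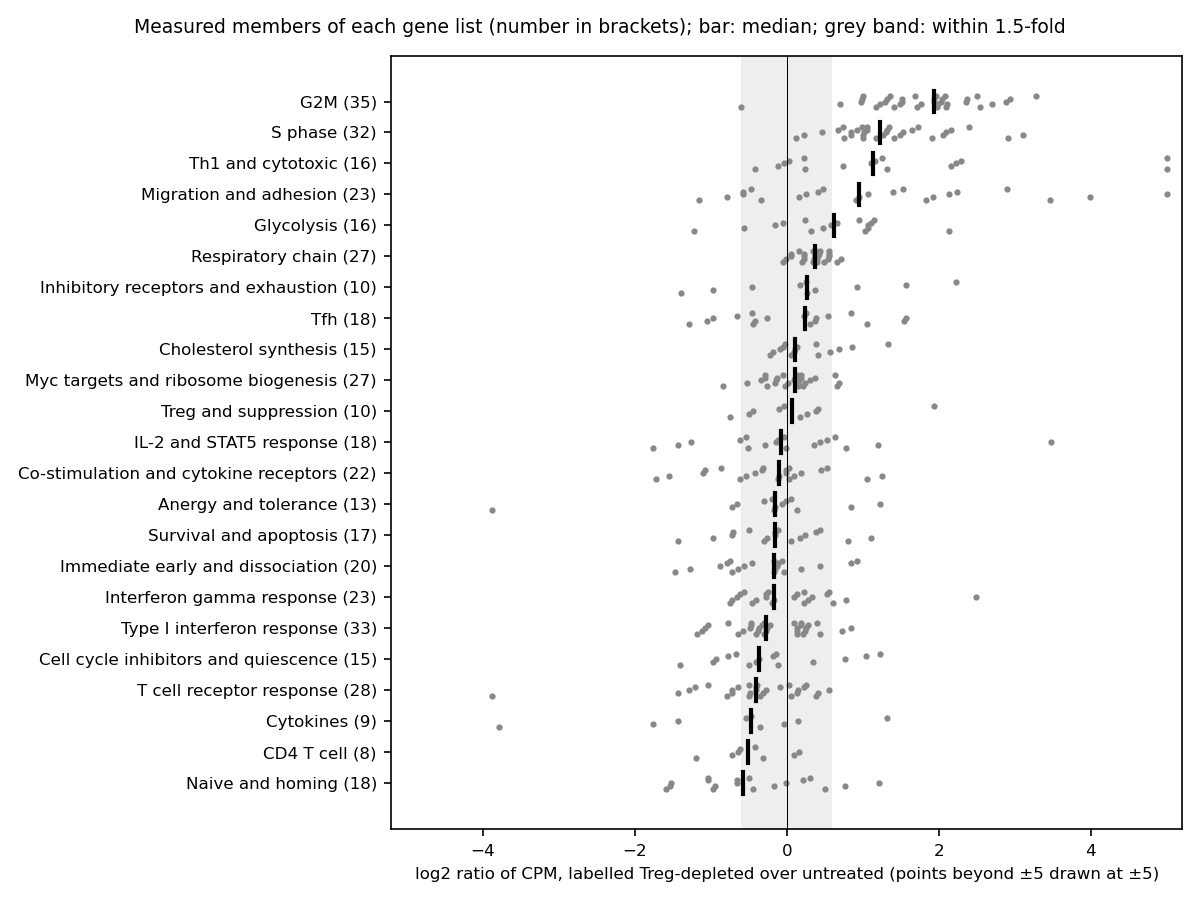
Log2 ratio of CPM, members labelled Treg-depleted over untreated members, for each measured gene (grey points) of the lists with 3 or more measured genes, with the list median (black bar) and the band within 1.5-fold (grey). The G2M, S phase, Th1 and migration lists have the highest medians (1.94, 1.22, 1.13 and 0.95) and the naive and homing list the lowest (−0.57).

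The same rule was applied to the pair of libraries with anti-CTLA4 antibody, which share no library with the pair above. It chose 1230 of 4343 cells labelled Treg-depleted and treated with antibody (called both treatments) and 3271 of 4566 cells with antibody alone, given on days 0, 2 and 5. In both treatments, too, Foxp3 was seen in 38.0% of all cells, against 1.18% with antibody. Of 6681 genes measured 460 (6.89%) were at least 2-fold higher with both treatments and 323 (4.83%) lower. The cell cycle lists lay on opposite sides in the pairs. G2M genes were at least 1.5-fold higher in 1 of 37 and lower in 35 with both treatments over antibody (median −1.51), where 16.5% of all genes were higher and 12.2% lower, and S phase genes lower in 32 of 32 (median −1.75). Mki67 had 103 CPM with both treatments and 388 CPM with antibody. Of the other lists, the Th1 and cytotoxic list had 11 higher and 3 lower genes of 16 (median 2.50), the naive and homing list 10 higher and 0 lower of 19 (median 0.64), and the cytokine list 7 lower of 8 (median −2.40) with both treatments over antibody. The difference between the pairs was not tested, and the base of the antibody pair differs, since untreated members had 74.0 CPM of Mki67.

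Across the 6403 genes measured in both pairs, of which 366 were at least 2-fold higher and 298 lower with both treatments, the log2 ratios of the pairs had a Pearson r of −0.16 and a Spearman rho of −0.30, given as a description since genes are not independent. Of 203 genes at least 2-fold higher in members labelled Treg-depleted and measured in both pairs, 44 were also 2-fold higher with both treatments over antibody (21.7% of 203 and 12.0% of the 366 higher there) and 97 were lower (47.8% of 203 and 32.6% of the 298 lower there). Of 172 genes 2-fold lower, 27 were lower (15.7% of 172) and 25 higher (14.5%). Some genes lay on the same side in both pairs. Among the 44 were Gzma, with 138 CPM with both treatments and 1.64 CPM with antibody (83.7-fold), Nkg7 with 1030 and 21.3 CPM (48.3-fold), Eomes with 292 and 6.90 CPM (42.3-fold), Socs3 with 87.8 and 3.48 CPM (25.3-fold) and Lag3 with 462 and 51.8 CPM (8.92-fold). Ly6a was higher there too, at 918 and 418 CPM, while S100a6 stood at 516 and 438 CPM (1.18-fold). Ifitm1 stood at 13.1 and 2.58 CPM. On the lower side Wnt10a had 6.39 CPM with both treatments and 327 CPM with antibody (51.1-fold lower), Rgcc 42.1 and 186 CPM (4.43-fold lower), Cd83 12.4 and 123 CPM (9.88-fold lower) and Tnfsf11 was 9.31-fold lower, whereas Zbtb20 was 1.91-fold higher at 154 and 80.8 CPM.

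**Figure D5:**
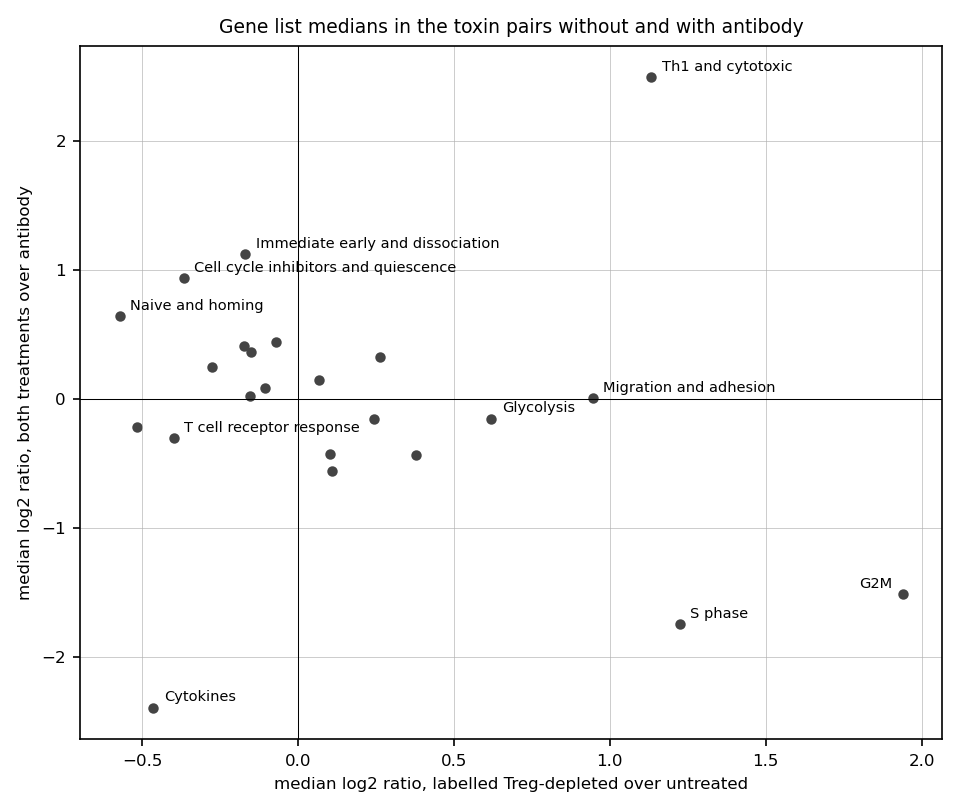
Median log2 ratio of each gene list in the antibody pair (both treatments over antibody, vertical) against the pair without antibody (labelled Treg-depleted over untreated, horizontal). Th1 genes lie above 0 on both axes (1.13 and 2.50), while G2M and S phase genes lie above 0 on the horizontal and below 0 on the vertical axis.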

How the data were processed

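Single-cell 3′ libraries were deposited as tables of UMI counts per gene and cell, 1 per library, with 11924 genes. The authors' tools, per the submitters' processing notes, were Cell Ranger 6.0.0, bcl2fastq 2.20, Seurat 4.0.4 and R 4.1.1, with the build mm10. Totals cover these listed genes alone. No cells were removed (at least 365 genes per cell) and no doublets. Barcodes shared between any 2 of the 5 libraries numbered 0 to 10, and 0 between the libraries labelled Treg-depleted and untreated.

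UMIs of members were summed per library and scaled to CPM. Ratios carry exact conditional binomial intervals, CPM exact Poisson and shares exact binomial (Clopper-Pearson) intervals, all 95%. A share of 0 is given with the limit of 3 cells in place of the exact bound. A count of 0 was set to 3 UMIs (1.22 CPM in members labelled Treg-depleted, 1.21 in untreated members). Of 561 list genes outside the rule, 519 are listed. The text names the 15 genes on each side whose ratio interval stays farthest from 1, without receptor, immunoglobulin, ribosomal, mitochondrial, sex-linked and unnamed genes, 2 to 4 genes per list, and 15 genes fixed for all comparisons. Other genes were named after their values were seen. A few named by this rule are left out of the text. Members and lists were chosen with earlier results of these data known. Alternatives were 21 fixed at the design stage and 3 added after seeing the data.

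Coordinates and 3′ ends (the last 300 bases, words of 31) came from GENCODE M21 on GRCm38, with all 148 names looked up found, and promoters from RefSeq, found for 9190 of the 11924 genes. The ratio code was tested on simulated data. Tools were Python 3.11.15, numpy 2.4.6, scipy 1.17.1, pandas 2.3.3, matplotlib 3.10.9, R 4.3.3 and edgeR 4.0.16 (TMM factors only).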

Additional observations from a re-analysis of the deposited data

Results flagged for a closer look

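Cell cycle genes lay on opposite sides in the toxin comparisons without and with antibody. The G2M median log2 ratio was 1.94 for members labelled Treg-depleted over untreated members and −1.51 for both treatments over antibody, and the S phase median 1.22 and −1.75. Single genes did the same: Rrm2 had log2 ratios of 3.10 and −2.13, Hist1h1b of 3.07 and −1.36, Pclaf of 2.91 and −2.31 and Aurkb of 3.28 and −1.29. Neurl3, a ubiquitin ligase gene, lay the other way round, with −1.97 and 1.87. None of these differences was tested, since each group is 1 library.

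Immunoglobulin genes were abundant in cells outside the members. Receptor-negative cells without Foxp3 and Il2ra had 31238 CPM of Igkc and 1595 CPM of Jchain in the library labelled Treg-depleted, against 19.6 and 0.892 CPM in the untreated library, and 10 cells held 87.9% of Igkc. In members Igkc stood at 24.0 CPM labelled Treg-depleted and 0.402 CPM untreated.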

How the results depend on the processing

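Without a condition on Foxp3 or Il2ra the 2-fold counts were 372 higher and 462 lower, against 221 and 190 as reported, and the medians were 2.41 (G2M), 1.79 (Th1 and cytotoxic), 1.63 (migration) and −0.99 (naive and homing). Within 2000 to 8000 UMIs 128 genes were higher, and the G2M and naive medians were 0.56 and −0.32. Without members over 1% of UMIs in the G2M list, they were 130, 0.40 and −0.43. That choice alone can lower the G2M median. With a minimum of 100 CPM 79 genes were higher and 52 lower (Th1 median 0.14), and with no CPM minimum 456 and 537. Lower genes numbered 287 with at least 2 receptor UMIs (Th1 median 0.76), 310 with Trav14d-3-dv8 alone (Th1 0.60), 400 with both receptor genes (Th1 0.51) and 307 with 0 UMIs also of Ikzf2, Ikzf4, Lrrc32 and Gpr83 (G2M 1.38). The Th1 median was 1.57 with 0 UMIs of Foxp3 alone, and −0.11 without cells with 3 or more UMIs of Ifitm1, Ifitm3, Lgals3 or Eomes, where the migration median was 0.76. With no receptor condition the naive median was −0.75. With the rule applied after thinning to 1000 UMIs the G2M and migration medians were 2.55 and 1.14. Members with at least 2 G2M genes made up 96.0% labelled Treg-depleted and 93.1% untreated with no thinning, 65.8% and 60.7% at 1000 UMIs, and 70.8% and 56.7% with at least 3 genes. Leaving such members out was not run, since 18 and 46 cells remained, under a minimum of 50. Single log2 ratios changed sign for Ifng (−0.32 within 2000 to 8000 UMIs and −0.13 without the Ifitm1, Ifitm3, Lgals3 or Eomes cells), Cxcr6 (−0.51 without those cells), Eomes and Ran (−0.42 and −0.0645 with 0 UMIs also of Ikzf2, Ikzf4, Lrrc32 and Gpr83), Rgs1 and Egr2 (0.79 and −0.14 without a condition on Foxp3 or Il2ra), and Cdkn2c (−0.15 within 2000 to 8000 UMIs and −0.17 without the cells over 1% in the G2M list). The cause was not tested. No paired analysis was possible because each group is 1 library. Over 117 named genes and 20 alternatives, 1867 values stayed within the counting interval of the reported ratio and 463 moved beyond it. Depth limits sparse genes most: 1 UMI was 0.407 CPM in members labelled Treg-depleted and 0.402 CPM in untreated members.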
